A study of Mus musculus with 10 samples.

Results

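Luminal cells sorted from mammary glands of mice labelled Bptf knockout were compared with luminal cells of mice labelled wild type. Each group consisted of 2 RNA-seq libraries by its titles, but the deposited table gave 1 column of mean normalised counts per group, so no difference in this comparison has a spread between replicates and none was tested here against one. Genes were taken where the mean of both columns was at least 50 normalised counts, which kept 6975 of 24000 genes in the table, or of 14736 genes with a count in at least 1 of these columns. Just inside this limit lay Efna5, with a mean of 50.04, and just outside it Upf3b, with 49.9997.

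All mice were female and, KO and WT alike, were treated with a total tamoxifen dose of 15 mg per kg of body weight ahead of cell sorting by FACS. The titles separate a WT and a KO group, and they state neither the strain nor the age, the deleted part of Bptf or the driver of any recombinase. The titles of both libraries of the KO group name the knockout, whereas their source label names wild-type mice. The column is therefore called the column labelled KO in what follows.

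Bptf is the large scaffold subunit of NURF, a chromatin remodelling complex in which the ATPase Smarca1 or Smarca5 slides nucleosomes and Bptf reads acetylated and methylated histone tails. Luminal cells line the ducts of the mammary gland, carry the keratins Krt8 and Krt18, and hold hormone-sensing cells with estrogen and progesterone receptors as well as progenitors of the milk-secreting cells. Basal or myoepithelial cells surround them, contract, and sit on a basement membrane through hemidesmosomes.

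The column labelled KO held 3840462 counts and the WT luminal column 2729006, with 13927 and 13035 genes detected and with 15.9% and 10.6% of counts from the ribosomal RNA precursor Rn45s. Luminal markers were abundant in both columns. On a scale common to the 5 columns of the series, Krt18 was at 17662 in WT luminal, 16915 in the column labelled KO, 2559 in the Bsecs population, 266 in the larger basal column and 514 in the smaller one. Epcam was at 7507 and 5986 in the luminal columns, between 2373 and 6551 in the other columns. The contractile gene Acta2 was at 33.9 and 66.5 in the luminal columns and at 11621 and 16616 in the basal ones. The basal columns carry opposite genotype names in different tables, so they serve here only as basal cells, named by their totals.

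Among the 6975 genes, 826 were at least 2-fold higher in the column labelled KO (11.8%) and 810 at least 2-fold lower (11.6%). These shares are the background for every list count below, and a count near them does not set a list apart. At least 4-fold higher were 156 genes (2.24%), and at least 4-fold lower 116 (1.66%). The balance between directions depended on the scale. With column totals without Rn45s in place of the deposited size factors, the 2-fold counts were 723 higher and 933 lower, and the 4-fold counts 134 and 144. The median log2 fold over all genes was -0.0032, and its quartiles were -0.56 and 0.57. Folds are ratios of normalised counts, and log2 folds add 1 to both. Each fold below comes with a 95% Clopper-Pearson counting interval of the split of reads, which leaves out all variation between mice and libraries. Of the genes past 4-fold, 14 of 156 higher and 3 of 116 lower rested on 3 or fewer reads in the column where they were low. In bulk samples such as these, fewer cells of a type and less RNA per cell cannot be told apart.

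**Figure D1:**
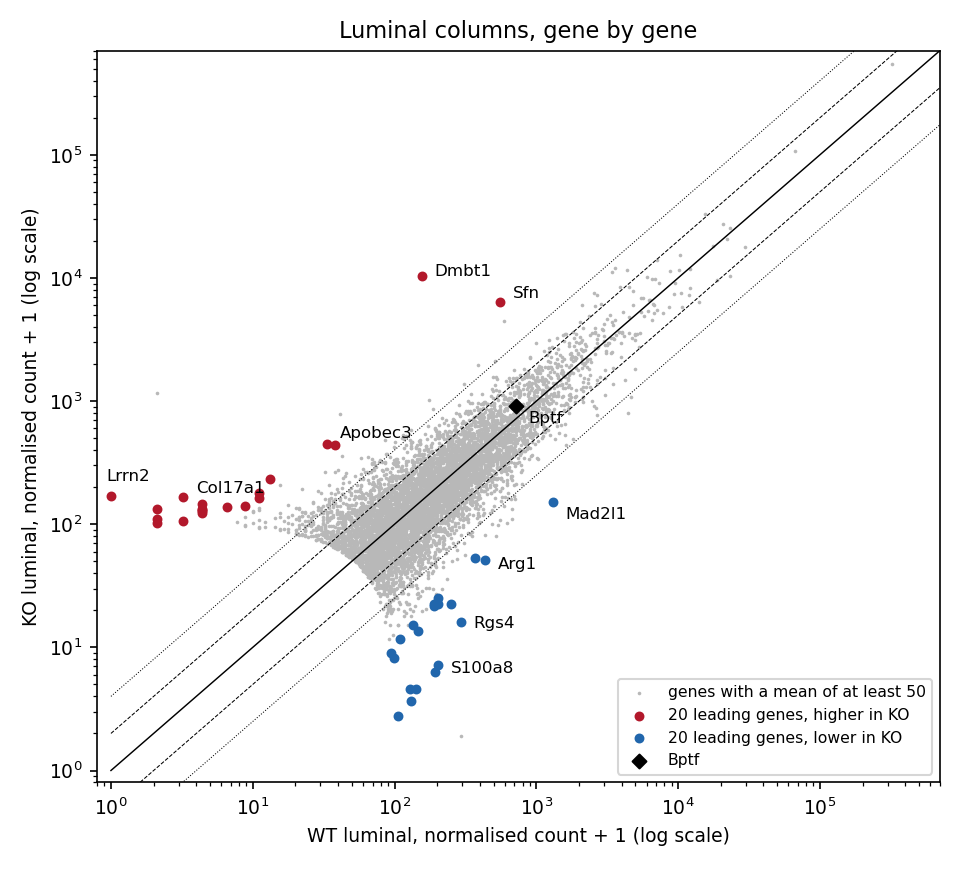
Normalised count plus 1 of every gene in the WT luminal column (x axis, log scale) and in the column labelled KO (y axis, log scale), with dashed lines at 2-fold and dotted lines at 4-fold. Red and blue points are the 20 leading genes in each direction, and Dmbt1, Sfn, Mad2l1 and Bptf are among those named; Bptf lies near the diagonal, at 1.27-fold.

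The folds moved with the composition of the transcripts, which bears on every gene list that follows. In the decile of genes with the lowest GC content the median log2 fold was -0.42, and in the highest decile it was 0.56. The share of genes at least 2-fold higher went from 2.70% to 27.1% between those deciles, and the share at least 2-fold lower from 22.9% to 4.50%. Genes past 4-fold had a median GC content of 54.9% when higher and 46.2% when lower. Log2 folds were therefore also centred within bins of GC content and transcript length for the 6670 genes with a matched transcript, an alternative added after the data were seen. This left 688 genes at least 2-fold higher (10.3%) and 648 lower (9.72%), and centred values stand beside the lists below, as the centred median or as the number past 2-fold. What part composition has in any single difference was not tested.

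**Figure D2:**
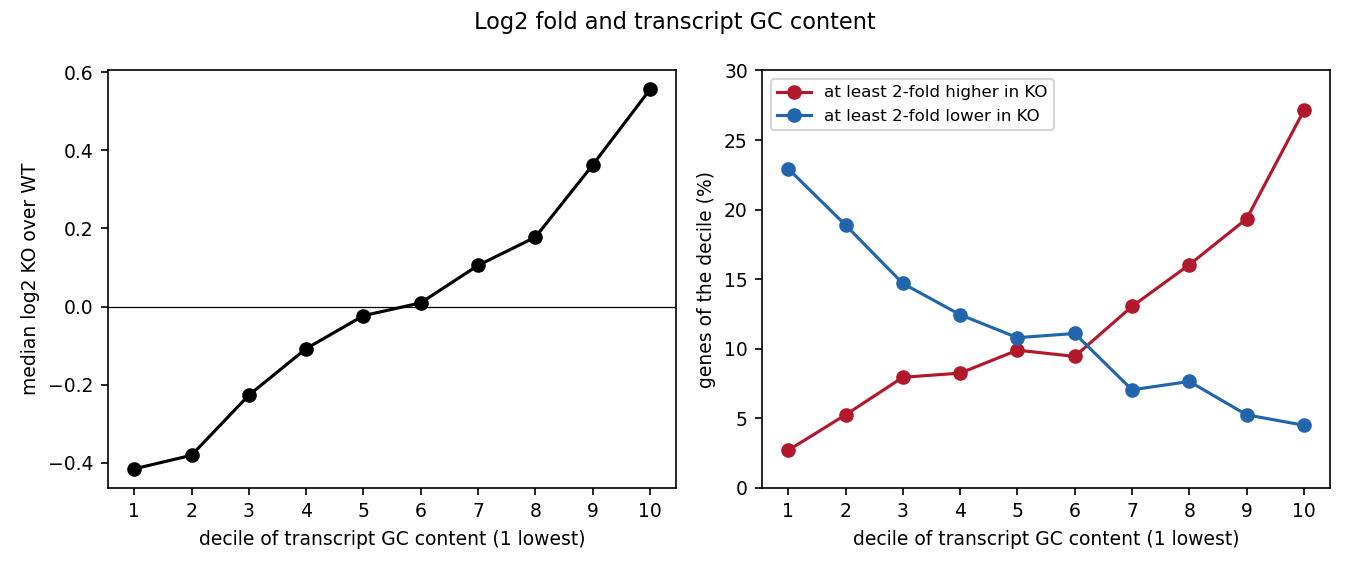
Median log2 fold (left panel) and the percentage of genes at least 2-fold higher (red) or lower (blue) in the column labelled KO (right panel), by decile of transcript GC content from lowest to highest. The median goes from -0.42 to 0.56, and the higher and lower shares cross near the middle deciles.

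Bptf itself gave 1018 counts in the column labelled KO and 640 in WT luminal, 1.27-fold higher (1.15 to 1.40), and its GC-centred log2 fold was 0.07. A total over the gene does not resolve a deleted exon, so this value does not check the genotype. The other subunits of NURF and of the related ISWI complexes leaned the other way. Their list of 12 genes, Bptf included, had a median log2 fold of -0.42 (-0.37 centred), with 1 member at least 2-fold higher and 0 lower. The ATPase Smarca5 gave 80 and 108 counts, 1.69-fold lower (1.26 to 2.29), the histone-binding Rbbp4 213 and 283, 1.67-fold lower (1.39 to 2.00), and Rbbp7 171 and 165, 1.21-fold lower (0.972 to 1.51), an interval that includes 1. Smarca1, the alternative ATPase, had 0 counts in both luminal columns and levels of 33.7 and 15.9 in the basal ones. The member past 2-fold was Chrac1, a histone-fold subunit of the CHRAC complex, with 122 and 43 counts, 2.26-fold higher (1.58 to 3.28).

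SWI/SNF, another family of remodelling complexes, had 0 of 18 members at least 2-fold higher and 2 lower, with a median of -0.32 (-0.42 centred). Actl6a, the actin-like BAF53A subunit, gave 21 counts in the column labelled KO and 138 in WT luminal, 8.25-fold lower (5.19 to 13.7). It was lower there than in all other columns, which ranged from 61.1 to 123 on the common scale against 15.2. Smarcb1, a core subunit, was 2.11-fold lower (1.68 to 2.64), while the ATPase Smarca4 was near equality at 1.09-fold (0.980 to 1.21). Of 26 other chromatin regulators, 3 were at least 2-fold higher and 1 lower. The higher count was near the 11.8% over all genes, and the lower count was under the 11.6% over all genes. These were the H3K27 demethylase Kdm6b at 2.64-fold, the DNA dioxygenase Tet3 at 2.36-fold and the H3K4 methyltransferase Kmt2d at 2.33-fold higher, and Tet2 at 2.23-fold lower. After centring, 0 of the 26 were past 2-fold higher and 1 was lower.

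The leading genes were ranked by the bound of the counting interval nearest to 1, and 20 were taken in each direction. This bound holds counting error alone and does not rank support for a difference between the groups. Dmbt1, a secreted scavenger-receptor glycoprotein of mucosal surfaces, led those higher in the column labelled KO. It gave 11689 counts there and 138 in WT luminal, 67.5-fold (57.1 to 80.4). Its common-scale level was 8451 in the column labelled KO, 123 in WT luminal, 115 in Bsecs, 36.5 in the larger basal column and 0 in the smaller. No other column came near the labelled KO level.

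Several leading genes had almost no reads in WT luminal cells. The membrane protein gene Lrrn2 gave 190 and 0 counts, at least 50.5-fold higher against a floor of 3 counts in the WT luminal column. The lipase Pnpla8 gave 148 and 1 counts, 118-fold higher (20.8 to 4689), and the actin-bundling Fscn1 123 and 1, 98.0-fold higher (17.3 to 3902). Neither was particular to the column labelled KO. Pnpla8 was at a level of 107 there and 102 in the larger basal column, and Fscn1 at 88.9 there and 1051 in Bsecs. Reads on the WT side numbered 3 or fewer for 11 of the 20 leading genes, so their folds have wide intervals. The cilium-associated kinase gene Stk36 (162 and 3 counts), the dipeptidase Dpep2 (143 and 3) and acetylcholinesterase Ache (137 and 3) belonged to this set. In Bsecs and both basal columns Dpep2 and Ache had 0 counts. They were read in the luminal columns alone, almost entirely in the one labelled KO.

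A second kind of leading gene was low in WT luminal cells and high in basal cells or Bsecs. Sfn, the epithelial 14-3-3 sigma protein and a p53 target, gave 7159 and 497 counts, 11.5-fold higher (10.5 to 12.6). Its level was 5176 in the column labelled KO, 444 in WT luminal, 53090 in Bsecs, 1034 in the larger basal column and 20297 in the smaller. Thus the column labelled KO exceeded the larger basal column and lay well under Bsecs. Col17a1, the transmembrane collagen of hemidesmosomes, gave 184 and 2 counts, 73.3-fold higher (20.01 to 609.8), with levels of 133 and 1.79 in the luminal columns and from 1058 to 2636 in the others. The calcium sensor Ncald, with 262 and 11 counts, was 19.0-fold higher (10.4 to 38.5), and reached 189 in the column labelled KO, 342 in Bsecs and 189 in the smaller basal column. The amino acid transporter gene Slc1a4 gave 493 and 33 counts, 11.9-fold higher (8.36 to 17.5), at a level of 356 against 380 in Bsecs.

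Apobec3, a cytidine deaminase that restricts retroviruses, gave 499 and 29 counts, 13.7-fold higher (9.43 to 20.7). Its level was 361 in the column labelled KO, 25.9 in WT luminal, 228 in the larger basal column, 55.8 in Bsecs and 1.33 in the smaller basal column. Of the other leading genes, those named next had at least 113 counts in the column labelled KO and 1 to 9 in WT luminal. They were Col7a1, the anchoring-fibril collagen; Rasa3 and Rin3, regulators of small GTPases; the tubulin-modifying Ttll1; the phosphatase regulator Phactr1; the nucleotide receptor P2ry6; and the kinase Nuak1. Of the 20, 13 were highest of all 5 columns in the column labelled KO, a count that is in part built into a ranking by this same column.

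**Figure D3:**
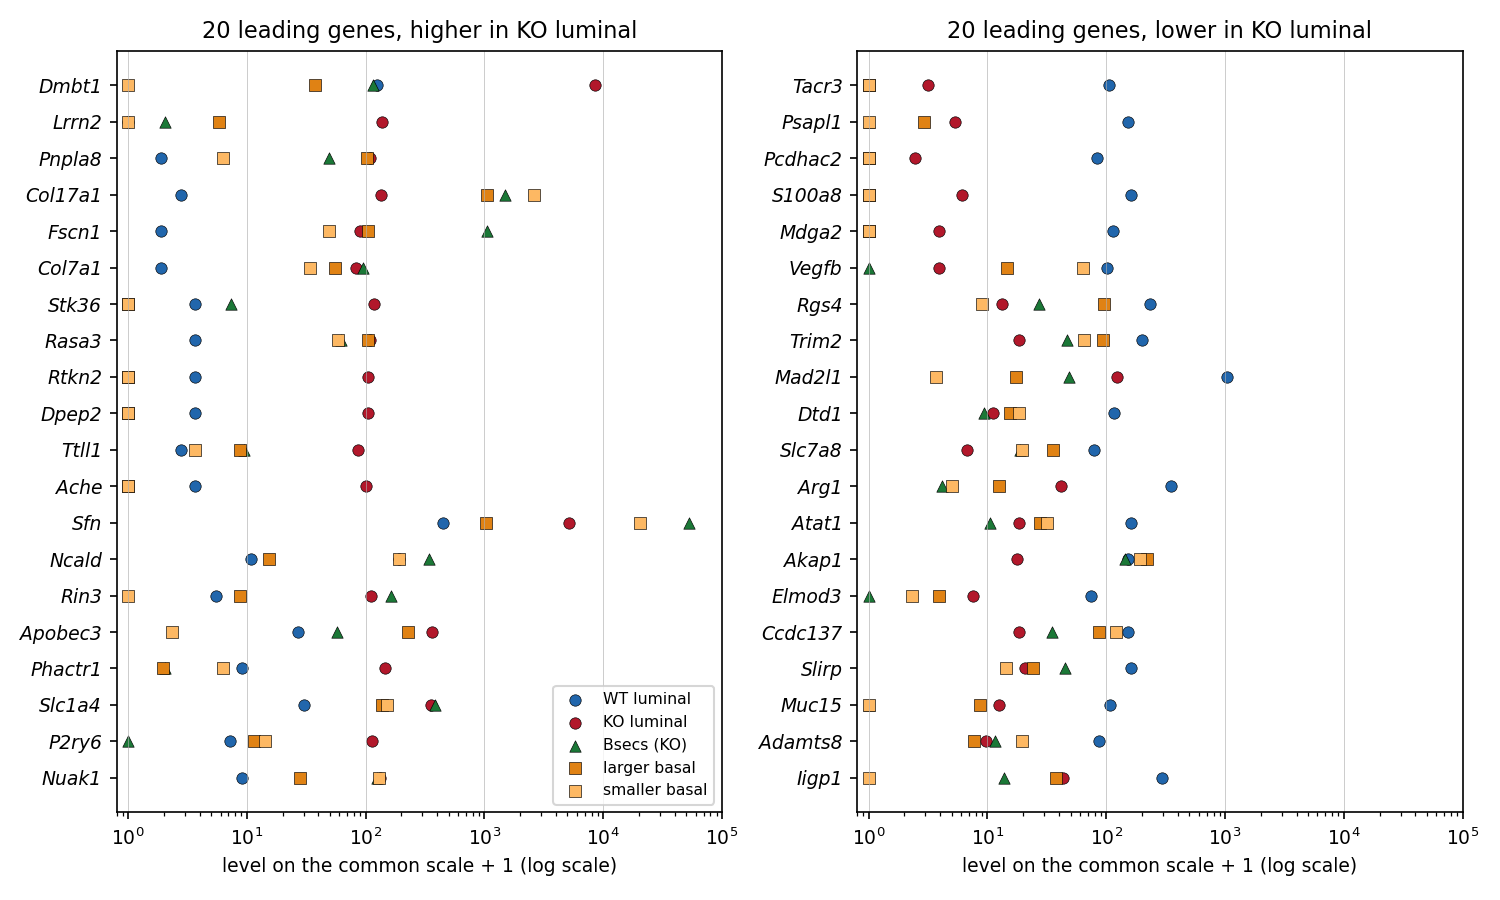
Level on the common scale plus 1 (x axis, log scale) of the 20 leading genes in each direction, in WT luminal, the column labelled KO, Bsecs and the larger and smaller basal columns. Among the higher genes 13 of 20 have their highest value in the column labelled KO, and among the lower genes 19 of 20 have it in WT luminal, the exception being Akap1. The ranking uses these same columns and favours such genes.

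Among the leading genes lower in the column labelled KO, 19 of 20 had their highest level of all 5 columns in WT luminal cells. The ranking selects genes that are high in WT luminal, so this count is in part built into the choice. Mad2l1, the spindle checkpoint protein, had the most reads, 169 in the column labelled KO and 1169 in WT luminal, 8.68-fold lower (7.38 to 10.3). Its level was 122 and 1044 in these columns, 47.4 in Bsecs, 16.3 in the larger basal column and 2.66 in the smaller. Arg1, the urea-cycle arginase, gave 56 and 390 counts, 8.74-fold lower (6.59 to 11.8), with levels of 40.5 and 348 and at most 11.5 elsewhere. Rgs4, a regulator of G protein signalling, gave 17 and 261 counts, 19.3-fold lower (11.8 to 33.6), and its level of 233 in WT luminal compared with 95.2 in the larger basal column.

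Several other leading genes had fewer than 10 counts in the column labelled KO. The neurokinin receptor gene Tacr3 gave 3 and 116 counts, 48.5-fold lower (16.2 to 239), and the protocadherin Pcdhac2 gave 2 and 93, 58.4-fold lower (15.7 to 489). Both had 0 counts in Bsecs and in the basal columns. The calcium-binding S100a8 gave 7 and 181 counts, 32.5-fold lower (15.4 to 81.9), whereas S100a9, the partner with which it forms calprotectin, gave only 2 and 4. The saposin-like Psapl1 gave 6 and 171 counts, 35.8-fold lower (16.1 to 98.8), the adhesion gene Mdga2 4 and 126, 39.5-fold lower (15.1 to 147), and the growth factor Vegfb 4 and 113, 35.5-fold lower (13.5 to 132). Vegfb was also read in basal cells, at 13.5 and 62.4 in the larger and smaller columns against 101 in WT luminal. The ubiquitin ligase Trim2 (24 and 224 counts), the amino acid transporter Slc7a8 (8 and 87), the tubulin acetyltransferase Atat1 (24 and 179) and the interferon-inducible GTPase Iigp1 (58 and 328) were 7.10- to 13.6-fold lower. The tRNA deacylase Dtd1 (14 and 130 counts), Elmod3 (9 and 83), Ccdc137 (24 and 169), the mitochondrial RNA-binding Slirp (27 and 181) and the metalloprotease Adamts8 (12 and 96) were 8.41- to 11.7-fold lower. Trim2 reached 93.3 and 63.7 in the basal columns against 199.95 in WT luminal. Akap1, a mitochondrial anchor of protein kinase A, was the exception in pattern. Its level was 16.6 in the column labelled KO and between 143 and 221 in the other 4 columns.

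The authors' deposited table gives a p-value for each gene from a comparison of 1 column with 1 column. With Benjamini-Hochberg adjustment over all 14736 genes, 8 genes were higher (0.0543%) and 5 lower (0.0339%) at 0.05. Unadjusted, 551 of the 14736 passed 0.05, a share below 0.05 itself. By these deposited p-values the adjusted p was 0.0362 for Apobec3, S100a8, Psapl1 and Rgs4, 0.0358 for Col17a1, 0.0433 for Pnpla8 and 0.00243 for Lrrn2. Outside the naming rule, the calls included a predicted gene beside Dmbt1, described next, the small nucleolar RNA Snord32a with 878 and 36 counts, and the predicted gene Gm6682 with 1 and 263. These p-values compare the sequenced columns and not the genotypes.

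The genes around Dmbt1 were higher together. In RefSeq order along chromosome 7 its measured neighbours are Htra1, a secreted protease, and 5430419D17Rik, which RefSeq calls Cdcp3. Htra1 gave 155 and 27 counts, and 5430419D17Rik gave 1311 and 1, 1045-fold higher (187 to 41288), the largest ratio of the comparison among genes with a read in both columns and a mean of at least 50. Cdcp3 and Dmbt1 both encode proteins with CUB domains, and the sources used here do not state how reads of related sequence were assigned. Over the genome 6943 genes could be placed, in 6923 neighbouring pairs. Both genes were at least 4-fold higher in 8 pairs and at least 4-fold lower in 2. At 2-fold, 98 pairs were higher and 119 lower. Over all single genes, 2.24% were at least 4-fold higher and 1.66% lower, and at 2-fold 11.8% and 11.6%. How many such pairs unrelated neighbours would give was not computed, so these counts do not show that neighbours differ together. Besides the pairs at Dmbt1, the higher pairs included Sfn with the palmitoyltransferase Zdhhc18 (310 and 61 counts) on chromosome 4, Bcl3 with Cblc on chromosome 7 and Prune2 with Gcnt1 on chromosome 19. D730005E14Rik (130 and 1 counts) overlaps Apobec3 on chromosome 15, and reads of this pair cannot be told apart without strand. The lower pairs were Dhrs3 with Tnfrsf1b and Ociad2 with Scfd2. These pairs were chosen after their values were seen.

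Promoters are shown for leading genes that have an entry in the RefSeq promoter table, 2 in each direction. They were chosen by read number among genes more than 4-fold apart and not by size of difference. Leading genes on a single chromosome were left out of this choice, so a gene with more reads can be missing. Of the 40 leading genes 29 had an entry, and Dmbt1 and Arg1 did not. Each sequence is the 250 bases before the transcript start on GRCm38.p6, written 5′ to 3′ along the gene, with motif matches in capitals. Sfn lies on the minus strand of chromosome 4, and its window is chr4:133602169-133602418. For Apobec3 the window is chr15:79892158-79892407 on the plus strand, the first of 2 entries. Mad2l1 has the window chr6:66534971-66535220 on the plus strand, and Rgs4 chr1:169747643-169747892 on the minus strand.
Sfn: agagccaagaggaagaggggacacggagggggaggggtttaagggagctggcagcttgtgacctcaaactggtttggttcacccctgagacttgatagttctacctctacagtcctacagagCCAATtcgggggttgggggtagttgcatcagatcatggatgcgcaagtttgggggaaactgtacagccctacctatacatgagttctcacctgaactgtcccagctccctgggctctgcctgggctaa
Apobec3: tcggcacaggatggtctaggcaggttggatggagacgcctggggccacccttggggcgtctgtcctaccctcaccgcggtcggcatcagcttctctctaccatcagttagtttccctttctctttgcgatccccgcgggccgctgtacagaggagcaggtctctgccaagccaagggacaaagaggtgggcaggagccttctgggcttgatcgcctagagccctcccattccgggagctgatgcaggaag
Mad2l1: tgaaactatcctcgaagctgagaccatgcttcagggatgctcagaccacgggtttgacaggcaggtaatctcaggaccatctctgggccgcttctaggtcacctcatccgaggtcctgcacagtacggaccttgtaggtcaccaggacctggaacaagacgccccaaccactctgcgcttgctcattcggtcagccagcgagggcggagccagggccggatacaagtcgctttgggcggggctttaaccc
Rgs4: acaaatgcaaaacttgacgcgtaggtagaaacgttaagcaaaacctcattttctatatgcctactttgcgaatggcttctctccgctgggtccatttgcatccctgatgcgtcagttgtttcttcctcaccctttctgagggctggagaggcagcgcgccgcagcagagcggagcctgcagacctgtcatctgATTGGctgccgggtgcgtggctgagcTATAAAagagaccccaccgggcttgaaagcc

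Both strands were searched for the TATA box TATAAA, the AP-1 site TGANTCA, the CCAAT box CCAAT and the E-box CACGTG. Of 32851 promoter windows of this length, 12.4% held the TATA letters, 6.75% the AP-1 letters, 33.8% CCAAT and 6.02% CACGTG. The Sfn window held 1 CCAAT match. The Rgs4 window held 1 TATAAA match and 1 CCAAT match on the reverse strand, printed as its complement. Neither the Apobec3 nor the Mad2l1 window held any of these letters. The windows had GC contents of 54.4% for Sfn, 61.2% for Apobec3, 58.8% for Mad2l1 and 53.6% for Rgs4, so the genes higher and lower in the column labelled KO overlapped in this respect.

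Most genes that define luminal cells were within 2-fold between the columns. Of 19 pan-luminal genes, 5 were at least 2-fold higher and 0 lower, with a median log2 fold of 0.48 (0.54 centred, with 3 higher and 0 lower). The surface marker Epcam gave 8280 and 8410 counts, 1.27-fold lower (1.24 to 1.31). The keratins were close between the columns. Krt8 gave 5991 and 5492 counts, 1.15-fold lower (1.11 to 1.19), and Krt18 gave 23396 and 19786, 1.06-fold lower (1.04 to 1.08). The tight junction claudin Cldn4 gave 37369 and 13795 counts, 2.16-fold higher (2.12 to 2.20), and the luminal transcription factor Gata3 gave 922 and 305, 2.41-fold higher (2.11 to 2.75). Cldn7 was 2.38-fold and the surface protein gene Ly6d 2.15-fold higher.

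Hormone-sensing genes were mixed. Of 13, 1 was at least 2-fold higher and 1 lower, with a median of 0.37 (0.35 centred). The progesterone receptor Pgr gave 1406 and 1089 counts, 1.03-fold (0.95 to 1.11), and the pioneer factor Foxa1 gave 340 and 268, 1.01-fold (0.859 to 1.19), both with intervals that include 1. Esr1, the estrogen receptor, was 1.34-fold higher (1.17 to 1.53). Prlr, the prolactin receptor, gave 10771 and 16820 counts, 1.96-fold lower (1.91 to 2.01). The coactivator Cited1 was 2.17-fold lower (2.02 to 2.34), and the homeobox gene Msx2 was 2.31-fold higher (1.92 to 2.80). Among 14 luminal progenitor genes, 1 was higher and 1 lower, with a median of -0.03, and after centring 1 was higher and 3 were lower, with a median of -0.14. The lower ones were then Csn3, Kit and the transcription factor gene Sox10. The surface receptor Kit gave 42 and 67 counts, 2.00-fold lower (1.34 to 3.02), just short of the limit on the log2 scale with 1 added. The aldehyde dehydrogenase Aldh1a3 was 1.21-fold higher (1.15 to 1.26), and Elf5, a master regulator of alveolar progenitors, had 48 and 27 counts, below the minimum.

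Genes of milk secretion leaned lower in the column labelled KO by their median, with exceptions. Of 11 with a mean of at least 50, 6 were at least 2-fold lower and 1 higher, with a median log2 fold of -1.69 (-1.22 centred). Shares of 11.6% lower and 11.8% higher are the background over all genes. After centring the counts were again 6 and 1, but not with the same lower members. Spp1 left the lower set, at a centred log2 fold of -0.996, and Xdh entered it, at -1.22. Kappa-casein Csn3 gave 900 counts in the column labelled KO and 3931 in WT luminal, a level of 651 against 3509, and at most 10.6 in the other columns. The iron-binding lactoferrin Ltf gave 1208 and 4126 counts, at levels of 873 and 3683 and at most 33.2 elsewhere. Butyrophilin Btn1a1, a protein of the milk fat globule, gave 111 and 436 counts and 0 in Bsecs and the basal columns. The transmembrane mucin Muc15, another globule protein, gave 16 and 119 counts, 9.33-fold lower (5.52 to 16.9), and osteopontin Spp1 86 and 223, 3.25-fold lower (2.53 to 4.22). The phosphate transporter gene Slc34a2 went the other way, with 187 and 39 counts, 3.82-fold higher (2.69 to 5.54). Mfge8, a globule protein, gave 2516 and 1710 counts, 1.17-fold higher (1.10 to 1.25), and the secreted Wfdc18 4083 and 3440, 1.06-fold lower (1.01 to 1.11). Csn3 aside, the caseins and the milk proteins Lalba and Wap had at most 21 counts in either column. Csn1s1 had 1 and 21 counts, Csn2 0 and 1, Lalba 4 and 2, and Wap 0 in both.

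**Figure D4:**
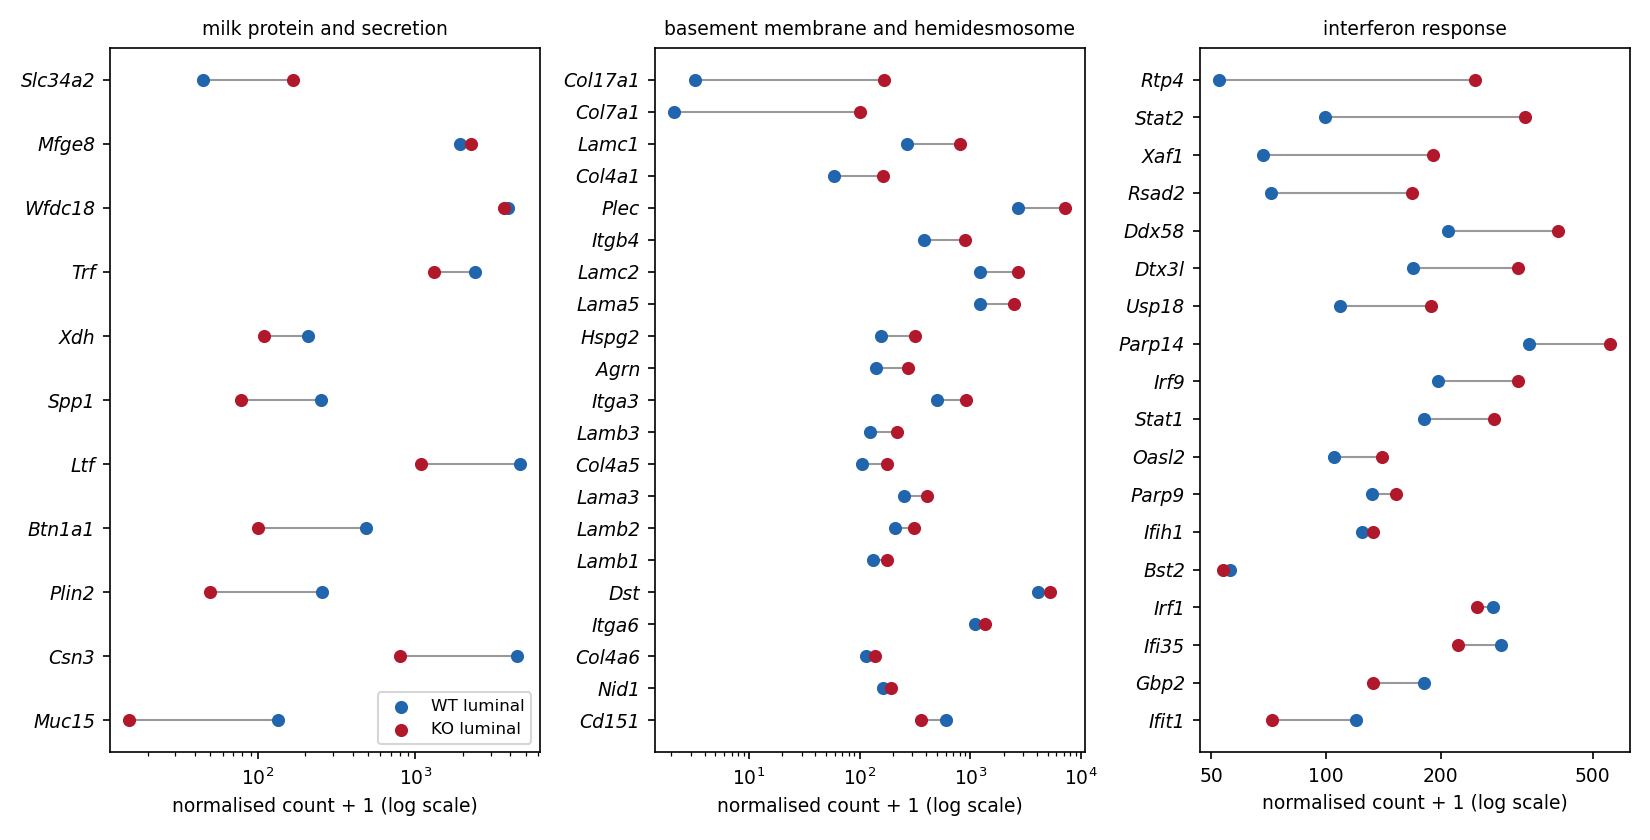
Normalised count plus 1 (x axis, log scale) of each measured member of the milk, basement membrane and interferon lists in WT luminal (blue) and the column labelled KO (red). Of the milk genes 6 of 11 are at least 2-fold lower in the column labelled KO, of the basement membrane genes 9 of 21 are at least 2-fold higher, and of the interferon genes 4 of 18 are.

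Among genes listed as basal, keratins were higher in the column labelled KO, whereas Mme and Sparc were lower. Not all of these keratins were high in the basal columns. Of 11 basal keratins and regulators, 4 were at least 2-fold higher and 1 lower, with a median of 0.80 (0.71 centred, with the same counts). Krt15, a keratin of basal progenitors, gave 128 and 7 counts, 14.6-fold higher (6.87 to 37.0), at a level of 92.5 against 6.25 in WT luminal, 2694 in Bsecs, 45.2 in the larger basal column and 41.2 in the smaller. Krt6a gave 492 and 127 counts, 3.09-fold higher (2.53 to 3.78). Its level was 356 in the column labelled KO, 113 in WT luminal and 4913 in Bsecs. In the larger and smaller basal columns it was lower than in WT luminal, at 54.8 and 3.98. The other higher members were Krt14 (298 and 54 counts) and Krt17 (474 and 87). The lower member was Mme, a membrane endopeptidase of basal cells, with 88 and 462 counts, 6.59-fold lower (5.24 to 8.37), against levels of 2086 and 1381 in the basal columns. Below the minimum, Krt5 gave 42 and 1 counts and the basal factor Trp63 gave 25 and 4, while the matrix protein gene Sparc, at 2379 and 1934 in the basal columns, gave 4 and 39, 12.2-fold lower (4.42 to 47.2). Krt5 was at a level of 30.4 in the column labelled KO and between 1773 and 3307 in Bsecs and the basal columns. Of 6 contractile genes, 0 were past 2-fold in either direction, and the median of this list was 0.08 (-0.0097 centred). Acta2 gave 92 and 38 counts, 1.93-fold higher (1.31 to 2.89), and was the 1 gene past 2-fold after centring. Below the minimum, the contractile genes Myh11 (25 and 8 counts), Cnn1 (11 and 1) and Myl9 (7 and 0) also had more counts in the column labelled KO. Actg2 (5 and 8) and Oxtr (0 and 2) had fewer. Summed over the list, contractile genes were at 6650 normalised counts in the column labelled KO and 7322 in WT luminal. Most of both sums was Tpm1, at 4871 and 5739, a gene that was also at a level of 17014 in Bsecs. The sums therefore do not give the direction of the other members. What part a few basal cells in the sort have in these values was not tested.

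The basement membrane and hemidesmosome list had 9 of 21 members at least 2-fold higher and 0 lower, with a median of 0.86. Centring left 3 higher and 0 lower, with a median of 0.30. The members named next show how far centring moved single genes. Lamc1, the common laminin gamma chain, gave 902 and 241 counts, 2.98-fold higher (2.58 to 3.45), with a centred log2 fold of 1.19. The cytolinker plectin Plec gave 8069 and 2396 counts, 2.68-fold higher (2.56 to 2.81), with a centred value of 0.67. The hemidesmosomal integrin Itgb4 gave 1002 and 337 counts, 2.37-fold higher (2.09 to 2.69), with a centred value of 0.49, while its partner Itga6 was 1.24-fold higher (1.14 to 1.34). Col17a1 and Col7a1 stayed high, with centred values of 5.14 and 4.83. Tight junction genes had 5 of 16 at least 2-fold higher and 0 lower, with a median of 0.35 (0.49 and 3 higher after centring). Cingulin Cgn gave 528 and 131 counts, 3.21-fold higher (2.65 to 3.92), and the polarity protein Pard6b 450 and 132, 2.72-fold higher (2.23 to 3.32). Desmosome and adherens junction genes had 3 of 14 higher, Jup, Pkp3 and Evpl, from 2.06- to 2.34-fold, and 0 lower. Centring left 0 higher and 1 lower, Pkp1 with 119 and 176 counts and a centred log2 fold of -1.38.

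Interferon-response genes were higher in part. Of 18, 4 were at least 2-fold higher and 0 lower, with a median of 0.65, and after centring 7 were higher and 0 lower, with a median of 0.56. Rtp4 gave 274 and 46 counts, 4.75-fold higher (3.46 to 6.64). The signal transducer Stat2 gave 371 and 88, 3.36-fold higher (2.66 to 4.29), the apoptosis factor Xaf1 213 and 60, 2.83-fold higher (2.11 to 3.83), and the antiviral enzyme Rsad2 187 and 63, 2.36-fold higher (1.77 to 3.20). The interferon-inducible Iigp1, which is not a member of this list and not in its counts, was 7.10-fold lower, against the direction of the list's median. Class I antigen presentation split, with 3 of 16 higher and 4 lower and a median of 0.02 (3, 2 and -0.13 centred). Cd274, the checkpoint ligand PD-L1, gave 105 and 12 counts, 6.97-fold higher (3.83 to 13.9), and the immunoproteasome subunit Psmb10 114 and 22, 4.13-fold higher (2.60 to 6.85). Beta-2-microglobulin B2m, the light chain of class I molecules, gave 2057 and 4406 counts, 2.69-fold lower (2.55 to 2.83). The peptide trimmer Erap1 was 2.77-fold lower (2.24 to 3.46).

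Among 13 mucosal defence genes and mucins, 2 were at least 2-fold higher and 3 lower, the same counts as after centring. Dmbt1 and the transmembrane mucin Muc13 (291 and 40 counts, 5.8-fold, 4.15 to 8.28) were the higher ones, and Muc4 (858 and 2382 counts, 3.48-fold, 3.22 to 3.77), Muc15 and Ltf the lower. Muc13 was at a level of 210 in the column labelled KO, 35.7 in WT luminal and at most 2.11 elsewhere. Of 15 chemokines and cytokines, 3 were higher and 1 lower, with a median of 0.27 (0.48 and the same counts centred). The cytokine Lif gave 8398 and 2294 counts, 2.92-fold higher (2.78 to 3.06), the neutrophil chemokine Cxcl5 431 and 109, 3.15-fold higher (2.55 to 3.92), and the macrophage growth factor Csf1 3106 and 1152, 2.15-fold higher (2.01 to 2.30). The alarmin Il33 gave 132 and 373 counts, 3.55-fold lower (2.90 to 4.36).

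Targets of p53 did not share a direction. Of 17, 4 were at least 2-fold higher and 4 lower, with a median of 0.30 (0.49 centred). The higher ones were Sfn, the cell-cycle inhibitor Cdkn1a at 2.10-fold (1.93 to 2.30), the stress cytokine Gdf15 at 2.57-fold (1.75 to 3.87) and the kinase Plk2 at 2.01-fold (1.85 to 2.18). The lower ones were cyclin G1 Ccng1 at 4.41-fold (3.42 to 5.75), the translesion polymerase Polk at 3.44-fold (2.79 to 4.26), Ei24 at 3.43-fold (2.60 to 4.57) and the ribonucleotide reductase subunit Rrm2b at 2.92-fold (2.05 to 4.22). Sfn also stood apart among the 14-3-3 adaptors, whose 7 genes had a median of -0.60 (-0.38 centred). Ywhaq gave 110 and 481 counts, 5.49-fold lower (4.45 to 6.81), and the abundant Ywhaz 1994 and 2733, 1.72-fold lower (1.62 to 1.82). Few cell-cycle genes reached the minimum, 4 of 24 for S phase and 3 of 28 for G2 and M phase. Besides Mad2l1, the cytokinesis scaffold Anln was past 2-fold, 2.44-fold higher (2.06 to 2.90). The proliferation marker Mki67 had 2 and 34 counts and topoisomerase Top2a 27 and 4, opposite in direction and few in number. Of 12 apoptosis genes, 2 were higher and 1 lower, and 1 and 1 after centring. The killer BH3 protein gene Bcl2l11 gave 597 and 102 counts, 4.66-fold higher (3.77 to 5.81), Bak1 was 2.26-fold higher (1.69 to 3.07), and the caspase inhibitor Xiap was 2.10-fold lower (1.78 to 2.48).

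In the EGF family 1 of 11 genes was at least 2-fold higher and 3 lower, with a median of -0.48 (-0.27 centred). The receptor Erbb2 gave 506 and 135 counts, 2.99-fold higher (2.47 to 3.64). Its family member Erbb4 gave 89 and 179, 2.52-fold lower (1.95 to 3.29), the ligand Hbegf was 2.37-fold lower (2.09 to 2.69), and the feedback inhibitor Lrig1 was 2.11-fold lower (1.66 to 2.68). Among TGF-beta and BMP genes 4 of 21 were higher and 0 lower, with a median of -0.04 (0.33 centred). The ligand Tgfb1 gave 124 and 22 counts, 4.49-fold higher (2.84 to 7.42), the receptor Acvr1b was 3.26-fold higher (2.23 to 4.89), the inhibitory Smad7 2.42-fold (1.75 to 3.40) and Tgfb2 2.13-fold (1.81 to 2.50). In the Wnt list 1 of 14 was higher, the R-spondin receptor Lgr4 with 128 and 18 counts, 5.67-fold (3.44 to 9.86), with the same count after centring. The Notch list likewise had 1 of 9, Notch2 at 2.10-fold (1.92 to 2.30), and 0 after centring. Of 14 epithelial transcription factors, Sox4 alone was past 2-fold, with 309 and 72 counts, 3.42-fold higher (2.64 to 4.48), also after centring. Immediate early genes had 1 of 22 higher, Junb at 2.45-fold, and 1 lower, Atf3 at 2.88-fold, and centring left 0 higher and 1 lower.

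Genes of lipid synthesis were higher in part. Of 20, 7 were at least 2-fold higher and 1 lower, with a median of 0.54 (0.59 and 6 higher after centring, over the 19 genes with a matched transcript). The acyl-CoA synthetase Acsl1 gave 105 and 9 counts, 9.30-fold higher (4.71 to 20.9), the fatty acid elongase Elovl5 95 and 15, 5.05-fold higher (2.91 to 9.37), and the desaturase Scd2 284 and 51, 4.44-fold higher (3.28 to 6.10). The sterol regulator Srebf2 was 2.32-fold higher (2.06 to 2.61), with a centred log2 fold of 0.45. Acly, which supplies cytosolic acetyl-CoA, gave 327 and 569 counts, 2.18-fold lower (1.90 to 2.51).

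Oxidative phosphorylation and proteasome genes leaned lower, less so after centring. Of 27 oxidative phosphorylation genes, 0 were at least 2-fold higher and 6 lower, with a median of -0.45 (-0.24 and 5 lower after centring). The complex I subunit Ndufa1 gave 54 and 170 counts, 3.95-fold lower (2.89 to 5.47), and Ndufb5 155 and 356, 2.88-fold lower (2.38 to 3.5). Of 23 proteasome genes, 0 were higher and 6 lower, with a median of -0.78, whereas centring gave 1 higher, 1 lower and a median of -0.22. Psma6, of the catalytic core, gave 232 and 620 counts, 3.35-fold lower (2.88 to 3.92). Cytosolic ribosomal proteins had 7 of 35 higher and 2 lower around a median of 0.08, and 7 higher and 0 lower around 0.20 after centring. Rpl3 gave 232 and 13 counts and Rps16 102 and 14, values that are uncertain because near-identical pseudogene copies can take or share such reads. The growth regulator Myc gave 1721 and 608 counts, 2.26-fold higher (2.05 to 2.48), while the ribosome biogenesis list that holds it had a median of -0.34 (-0.12 centred).

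**Figure D5:**
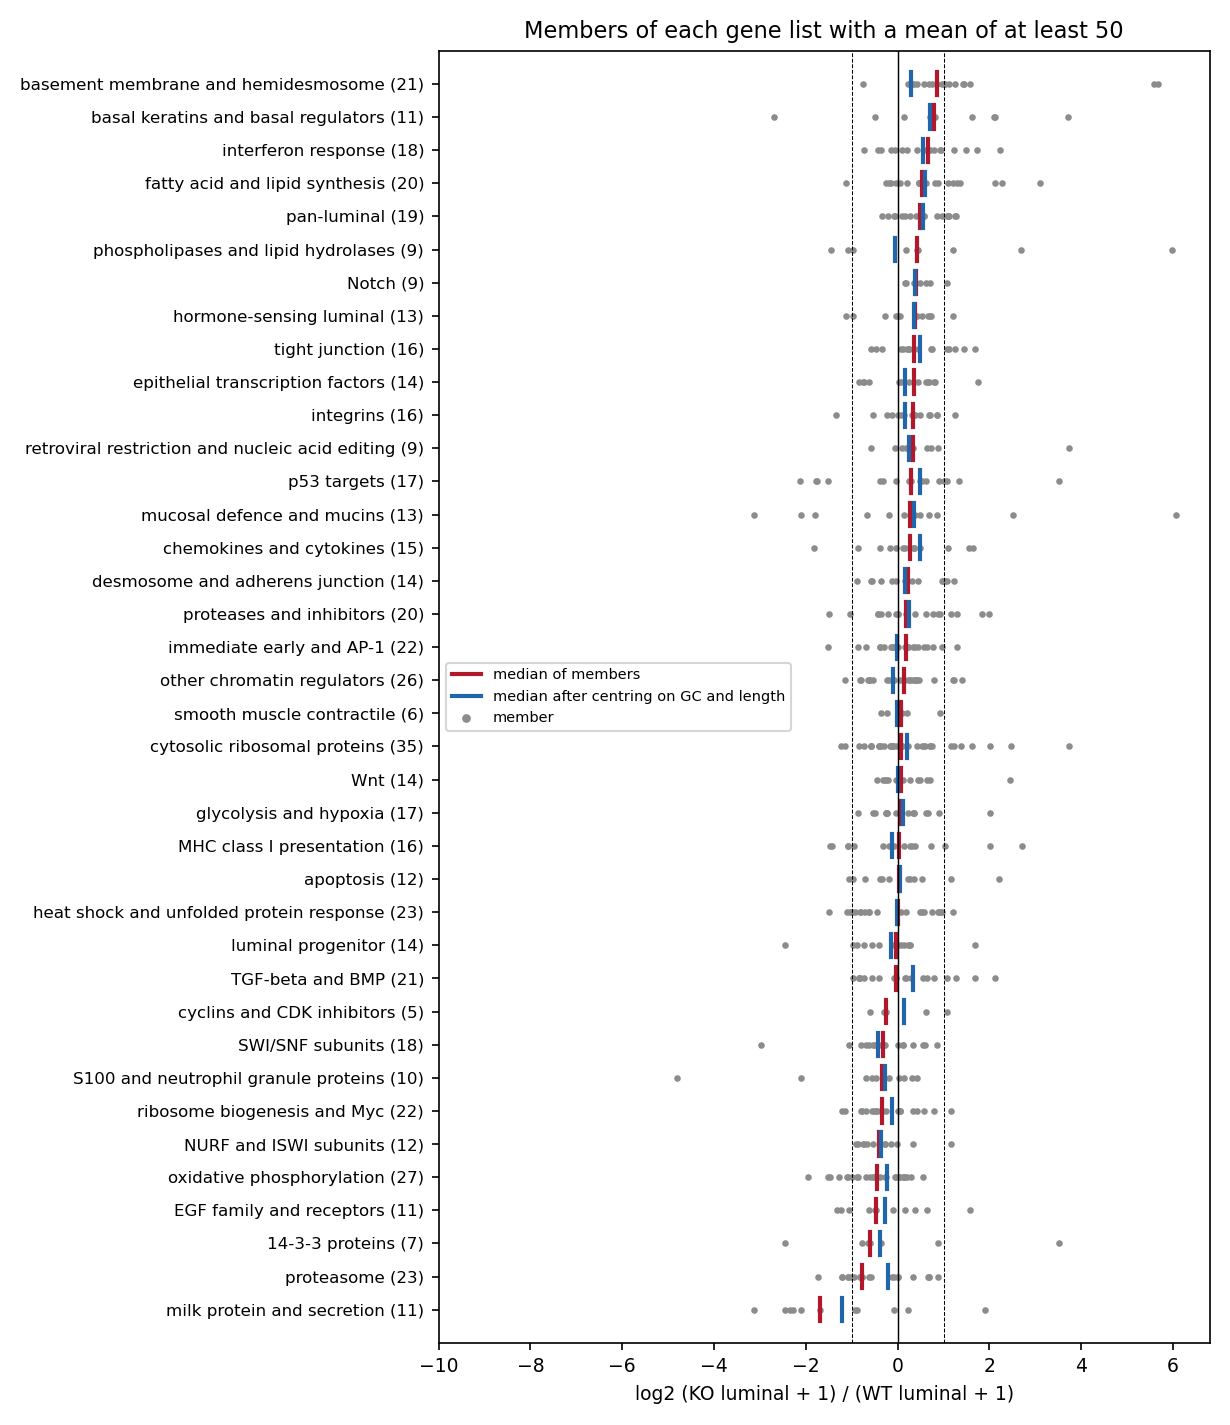
Log2 fold of each member with a mean of at least 50 (grey points) for the lists with at least 5 such members (the number in parentheses), with the median (red) and the median after centring on GC content and length (blue); dashed lines mark 2-fold. The milk list lies lowest at -1.69 (-1.22 centred) and the basement membrane list highest at 0.86 (0.30 centred).

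Markers of other cell types were few in both columns. Endothelial markers summed to 210 normalised counts in the column labelled KO and 117 in WT luminal, and the defining genes Pecam1 (2 and 7 counts) and Cdh5 (1 and 2) were near 0. Of 12 endothelial markers, 6 and 5 were at 0. Fibroblast markers summed to 1264 and 1025, carried by Dcn, whereas the collagens Col1a1 (0 and 13 counts) and Col3a1 (2 and 22) were near 0. The 12 lymphocyte markers summed to 11.6 and 3.36, with 9 and 10 at 0, and the 11 macrophage markers found in the table to 144 and 91.9, with 8 and 7 at 0. Of these macrophage markers Csf1r, below the minimum, gave 76 and 17 counts, 3.56-fold higher (2.09 to 6.43). Pericyte markers summed to 450 and 395, Schwann and nerve markers to 781 and 572, with Mbp at 707 and 337 counts, and adipocyte markers to 15.2 and 22.4. The neutrophil list summed to 15.2 and 217, nearly all of it S100a8, while the granule genes Ngp and Camp had 0 counts in both columns. Erythrocyte markers summed to 37.5 and 0, with 7 of 8 at 0 in the column labelled KO.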

How the data were processed

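RNA of FACS-sorted cells was amplified with Ovation kits made for small inputs, per the labels' protocols. Per the submitters' processing notes, STAR, DESeq and the build mm9 were used; the sources used here state no version, counter, annotation or strand setting. Per the file headers, the authors deposited the mean signal (normalised count) per group, a fold and a p-value per gene. The deposited log2 and fold columns were not used. All signal values (100%) were whole multiples of 1 step per column within 0.01, so whole counts were recovered; the steps multiply to 1, which means 1 column against 1 column. Whether a column pools both libraries or holds 1 is not stated. There were 0 per-sample columns.

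Log2 folds used a pseudocount of 1. Intervals are 95% Clopper-Pearson, and folds against 0 counts use a floor of 3 counts in that column. Both cover counting error only, because each group has 1 column. Amplified reads lack molecular identifiers, so copies of 1 molecule count as separate reads and the intervals can be too narrow. Common-scale levels are counts divided by median-of-ratios factors over 9789 genes. GC content and length came from the longest protein-coding GENCODE M21 transcript of GRCm38, matched by symbol for 95.6% of genes, in 10 GC bins of 5 length bins each. The rule for named genes was Bptf, then 20 genes per direction by the interval bound nearest to 1 (passing over predicted genes, small RNAs, date-converted and duplicated symbols), then up to 4 members per list past 2-fold, and members that define a list's theme, with values. Any other gene was picked with its values in view. 1 result is not reported here. The 51 lists held 1057 entries, of which 10 matched no symbol. Genes, lists and rules were chosen with earlier results of these data known. edgeR 4.0.16 (exact test, assumed dispersion 0.16) was run as an alternative on the recovered counts. Steps were tested on simulated data. Software was Python 3.11.15, scipy 1.17.1 and R 4.3.3.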

Additional observations from a re-analysis of the deposited data

How the results depend on the processing

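The counts of genes past a fold depended on the minimum level. With a minimum mean of 20, 200 or none in place of 50, genes at least 2-fold higher numbered 1354, 262 and 3249, and at least 2-fold lower 1293, 219 and 2848. At least 4-fold higher were then 365, 26 and 1319 genes, and at least 4-fold lower 289, 20 and 901. A pseudocount of 10 gave 101 genes 4-fold higher and 70 lower. Adjusted deposited p-values called 8 and 5, and adjusting over the genes with a mean of at least 50 alone, chosen after seeing the data, called 14 and 7. The edgeR exact test at a dispersion set to 0.16 gave 149 genes higher and 77 lower. Other scales shifted all log2 folds by -0.08 (totals without Rn45s), 0.0024 (TMM) or -0.00061 (upper quartile). Of the list medians under all alternatives, 325 stayed, 11 moved and 2 reversed: S phase went from -0.37 to 0.70 at a minimum mean of 20, where 11 genes replace 4, and phospholipases from 0.42 to -0.059 after centring on GC content and length, whose cause was not tested. Of the log2 folds of named genes, 618 stayed, 77 moved and 0 reversed. No paired analysis was possible because the deposited columns carry no replicate numbers and give no value per library, and leaving out a library was not possible for the same reason.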
